A study of Rattus norvegicus with 6 samples.

Results

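The ribosomal protein genes measured here were the 64 probe sets, of 8740 in all, whose platform annotation names exactly 1 gene with an Rpl, Rps, Rplp or Rpsa symbol, S6 kinase genes left out. They read 44 genes: 43 probe sets of 30 genes for the large subunit and 21 probe sets of 14 genes for the small one. Of these, 9 probe sets carry a pseudogene symbol or that of a gene copy, such as Rps4x-ps9, Rpl19l4 or Rplp1l3, and were kept because the rule takes the symbol as given. RNA came from primary cultures of cardiac fibroblasts, with ventricle as the tissue, of Sprague-Dawley rats aged 1 to 2 days. The control group was 3 cultures that received water, and the other group was 3 cultures that received pertussis toxin (PTX) for 24 h, with no genetic change in either. PTX, a toxin of the whooping cough bacterium, modifies Gi and Go proteins so that receptors can no longer signal through them. The sources used here give no dose. They also leave unsaid whether replicates stem from separate cell isolations, so each p-value rests on a spread between samples that may be only technical.

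Cytosolic ribosomal proteins, together with ribosomal RNA, build the large and small subunits of the ribosome, and their genes are among the most strongly transcribed in dividing cells such as fibroblasts in culture. Vertebrate messengers of this family are known for a tract of pyrimidines at the very start of the transcript, the terminal oligopyrimidine tract, through which mTOR signalling controls how well they are translated. The arrays measured transcript levels only, and say nothing of translation. The family also has many processed pseudogenes and near-identical copies, so a probe set can read more than the gene it is named for.

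The start tract is a feature that the choice of members did not use, and it is shown here for genes that the results below turn on. RefSeq sequence of the rat assembly GRCr8 was available for 37 of the 44 genes. Each line gives 30 bases, 15 before the annotated start and 15 from it, and capitals mark the longest tract of a C followed by at least 4 bases that are each C or T.
Rplp0: gaccgcaccgcaCTTCTCTCgccaggcgtc
Rpl31: ccacaatccctcgcgCCTTTCCTTTCCaac
Rps15: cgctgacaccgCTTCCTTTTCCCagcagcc
Rpl4: taagttCTTCCTTTTCCTgtgggagcagcc
Rpl26: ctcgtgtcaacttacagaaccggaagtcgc
The windows lie at chr12:46718376-46718405 (minus strand) for Rplp0, chr9:49143096-49143125 (plus) for Rpl31, chr7:10068101-10068130 (minus) for Rps15, chr8:73566462-73566491 (plus) for Rpl4 and chr10:54109677-54109706 (plus) for Rpl26. Each covers the end of the promoter and the first bases of the first exon. In Rpl31 the tract of 12 bases begins at the annotated start itself. In Rplp0, Rps15 and Rpl4 the tract spans the start, and in Rpl4 it begins 9 bases before the start. In Rpl26 no such tract lies in the 30 bases.

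Read on the transcribed strand alone, the annotated start was a C followed by 4 bases that are each C or T in 11 of the 37 promoters (29.7%), against 2.63% of all 27457 rat promoters in the table. Within 20 bases on either side such a tract was found in 29 of 37 (78.4%) and in 48.0% of all promoters, so the wider window separates the family less. The word CTTCC, or its longer form with another T (CTTTCC) or with still another (CTTTTCC), which overlap such tracts, occurred within 20 bases of the start in 22 of 37 (59.5%) and in 10.5% of all promoters. By subunit, the tract stood at the start in 9 of 27 large subunit and 2 of 10 small subunit promoters. The other measures had the larger share in the small subunit. A tract within 20 bases was found in 20 of 27 and 9 of 10, and the word in 14 of 27 and 8 of 10. These are matches of letters to annotated starts, and an annotated start can lie some bases from the one the cells use.

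The arrays were alike in overall level, with median signals of 63.1 to 68.85, but control replicate 1 stood apart, its correlation with the other 5 arrays being 0.952 to 0.960, against 0.978 to 0.985 among those 5. Counts and medians of the ribosomal protein genes and of the related lists are therefore given with and without that array. Signals are those of GCOS, the array maker's software. Tests used limma on log2(signal + 16) over the 5244 probe sets at or above the 40th percentile of mean log2 signal, with Benjamini-Hochberg adjustment over all of them and 0.05 as the threshold. A log2 change is PTX minus control on that scale. Of the 64 ribosomal protein probe sets 60 passed the filter, 41 of the large and 19 of the small subunit. The 4 that did not were both probe sets of Rps2-ps1, the only one of Rplp1l3 and 1 of Rpl3l, the gene of a striated muscle variant of the large subunit protein L3.

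Markers of the labelled cell type were present, since all 10 fibroblast genes of the list, collagens, Dcn, Postn, Thy1 and others, had a probe set that passed the filter. Their summed signal was 83812 to 99999.9 on the control arrays, highest on control replicate 1, and 87819 to 91926 on the PTX arrays. Of their 23 tested probe sets 13 had a log2 change above 0 and 10 below. None passed with 6 arrays. Without control replicate 1, 1 probe set of Thy1 passed as lower (-0.95, limma adjusted p = 0.00791) and Lum passed as higher (0.74, limma adjusted p = 0.00662). The background in that fit was 0.343% lower and 1.85% higher. Cardiomyocyte genes were bright as well: 12 of the 14 on the array passed the filter, and their summed signal was 282594 to 362944 in the controls, highest on control replicate 1, and 242073 to 272934 with PTX. Of their 22 tested probe sets 19 were below 0, with a median log2 change of -0.24. For 8 (36.4%) all PTX arrays lay below all controls, where the background is 10.6%. Without control replicate 1, 18 were below 0 and the median was -0.12. The summed signal of 8 macrophage and leukocyte genes, 5 of them tested, was 3477 to 3532 in the controls and 4227 to 5388 with PTX. Its brightest gene, Lyz2, read 2139, 2517 and 2487 in the controls and 3276, 4150 and 2908 with PTX. The list did not move as a whole: of its 7 tested probe sets 4 had a log2 change above 0 and 3, of C1qb and C1qc, below. Fcgr2b moved most, with 323, 298 and 354 in the controls and 596, 592 and 648 with PTX. Its log2 change was 0.88 (limma adjusted p = 0.0876). Without control replicate 1 it was again 0.88 and passed (limma adjusted p = 0.00791), where 1.85% of all tested probe sets passed as higher. In that fit 5 of the 7 were above 0. The summed signal of 4 endothelial genes, 2 of them tested, was 165 to 232 in the controls and 140 to 200 with PTX. That of 5 smooth muscle genes, all tested, was 22708 to 24929 in the controls and 22931 to 23855 with PTX. The part of these other cells in the values below was not tested, and in such bulk samples fewer cells of a type and less RNA per cell cannot be told apart.

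**Figure D1:**
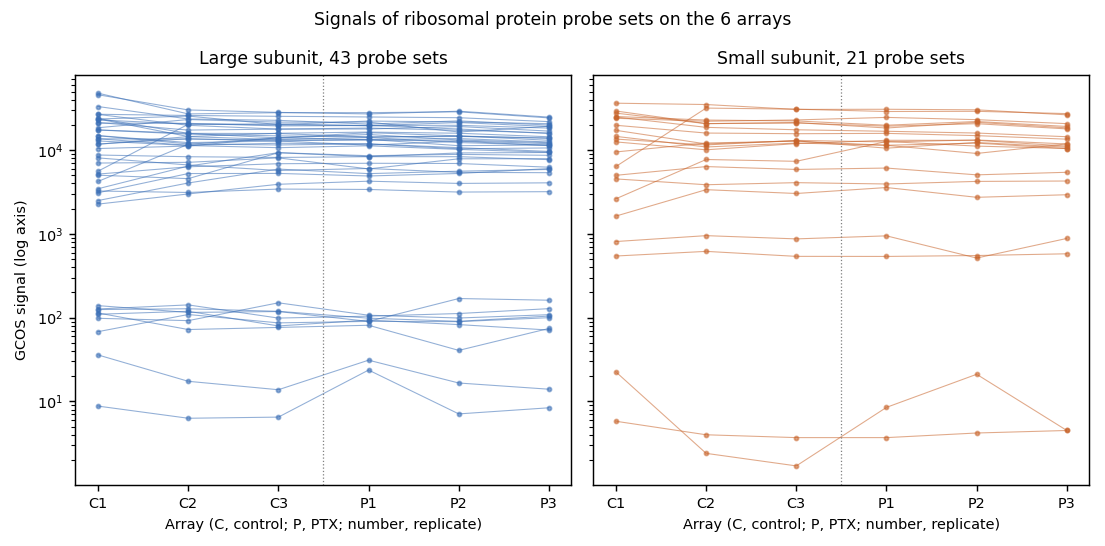
Signals of the 43 large and 21 small subunit probe sets on the 6 arrays, on a log axis; each line joins the values of 1 probe set and C and P stand for control and PTX. Most lines run flat at high signal from C2 to P3, while at C1 some drop well below the rest and others rise.

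No ribosomal protein probe set passed the adjusted threshold in either direction when all 6 arrays were used. With limma 0 of 60 passed, the smallest adjusted p being 0.336, where 0.0763% of all tested probe sets passed as higher and 0% as lower. Without adjustment, p was under 0.05 for 3 higher probe sets, of Rps4x-ps9, Rpl27 and Rpl39, and for 1 lower, of Rpsa. The background at that level was 7.97% higher and 4.61% lower, and these counts among 60 do not stand above it. The median half-width of the 95% interval of a log2 change was 0.33 over the 60 probe sets, ranging from 0.23 to 1.28. Changes smaller than the half-width of their own probe set could not be told from 0, even without adjustment. Larger ones could still miss the adjusted threshold, as the log2 change of 1.10 of Rps4x-ps9 did.

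Small negative values made up most of the family. Of the 60, 45 had a log2 change below 0, against 52.9% of all tested probe sets. The large subunit had 30 of 41 below 0, with a median of -0.09 and a range of -0.36 to 0.72. The small subunit had 15 of 19 below 0, a median of -0.09 and a range of -0.36 to 1.10. The medians of the subunits differed by -0.01. All tested probe sets had a median of -0.02. After cyclic loess normalization the large subunit median was 0.02 and that of the small one -0.01, and after quantile normalization they were -0.01 and -0.02, so the direction of the large subunit's median depends on the scaling.

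The negative shift was shared by other bright probe sets. Of the 60 tested members 50 lay in the brightest 10% of all tested probe sets. The other 475 probe sets of that 10% had a median log2 change of -0.14, with 69.7% below 0, while the 50 members there had -0.11. The 475 are those outside the rule, and still hold probe sets naming several genes, ribosomal protein genes among them. For 10 of the 60 members (16.7%) all PTX arrays lay below all control arrays, where the background is 10.6% of all tested probe sets and the share among the other bright probe sets 24.4%. For 2 members (3.33%) all PTX arrays lay above all controls, where the background is 12%. Of the 50 bright members 76% were below 0, a larger share than among the other bright probe sets, while the PTX arrays lay below all controls for 18% of them, a smaller share.

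**Figure D2:**
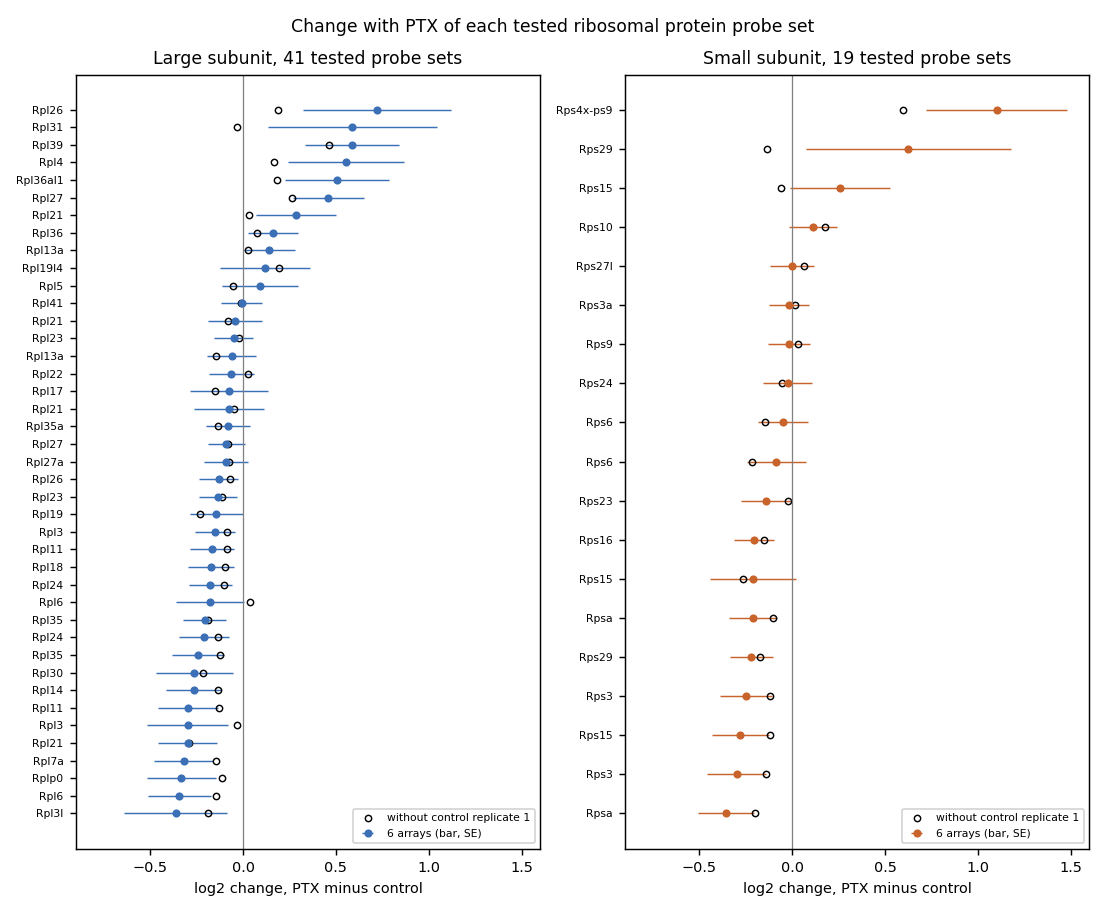
Log2 change, PTX minus control, of the 41 large and 19 small subunit probe sets tested, 1 row per probe set; filled points with SE bars use 6 arrays and open points leave out control replicate 1. Most filled points lie between -0.36 and 0, and the few to the far right, such as Rpl26, Rpl31 and Rps29, come back towards 0 in the open points; under cyclic loess normalization the median of the large subunit is 0.02.

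Without control replicate 1 the members lay closer together. Large subunit changes then ran from -0.29 to 0.46 (median -0.08, 30 of 41 below 0) and small subunit changes from -0.27 to 0.60 (median -0.12, 14 of 19 below 0), where 52.3% of all tested probe sets were below 0. With limma 1 of 60 rose, Rps4x-ps9, and 0 fell, against 1.85% of all tested probe sets higher and 0.343% lower. The unadjusted p was under 0.05 for that probe set alone, with 0 lower, where the background was 9.63% and 5.78%. PTX arrays lay below both remaining controls for 12 members (20%; background 15.9%) and above them for 2 (3.33%; background 17%). The median half-width of the 95% interval narrowed to 0.24.

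The single arrays show where the shift sits. The median deviation of large subunit probe sets from their own mean over 6 arrays was 0.10 on control replicate 1, 0.02 and 0.03 on control replicates 2 and 3, and 0.01, -0.04 and -0.11 on PTX replicates 1, 2 and 3. Small subunit probe sets had 0.10, 0.01 and 0.02 in the controls and -0.01, -0.01 and -0.10 with PTX. Both subunits were thus highest on control replicate 1 and lowest on PTX replicate 3, with the other 4 arrays between. The other bright probe sets had 0.18, 0.05 and 0.01 in the controls and -0.05, -0.02 and -0.09 with PTX, the same arrays at the ends. Of the 60 members 30 had their highest signal on control replicate 1, which was the highest array for 35.5% of all tested probe sets. Their lowest signal was on PTX replicate 3 for 27, where the share over all tested probe sets was 13.1%.

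**Figure D3:**
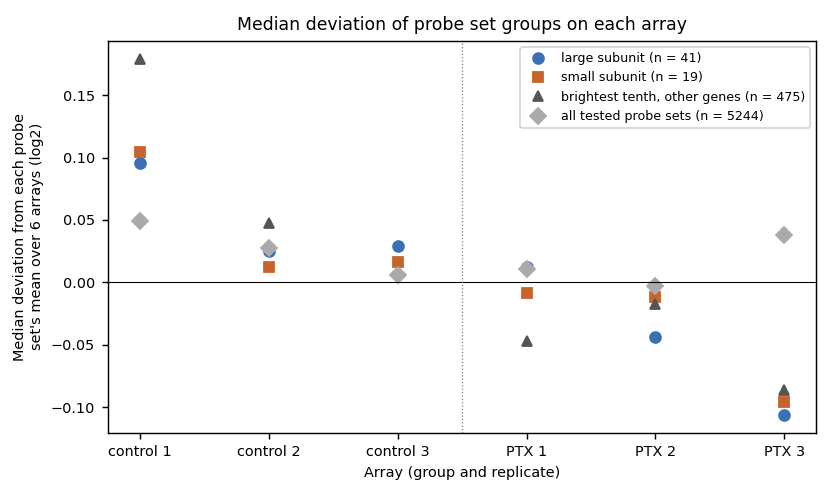
Median deviation, in log2 units, from each probe set's mean over the 6 arrays, for the large subunit (n = 41), the small subunit (n = 19), other probe sets of the brightest 10% (n = 475) and all tested probe sets (n = 5244). Both subunits are highest on control replicate 1 (0.10) and lowest on PTX replicate 3 (-0.11 and -0.10), as the other bright probe sets are. The 475 include probe sets naming several genes, ribosomal protein genes among them.

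Among the small subunit genes, Rpsa had the lowest log2 change. It encodes a protein of the small subunit that is also known as the laminin receptor. Its first probe set read 24892, 18720 and 17517 in the controls and 16805, 16009 and 14469 with PTX, so that the groups did not overlap and control replicate 1 was well above the other controls. The log2 change was -0.36 ± 0.15 (SE; 95% interval -0.71 to -0.0043; limma adjusted p = 0.397), or -0.20 with control replicate 1 left out (adjusted p = 0.386). The second probe set had -0.21, with overlapping groups.

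The remaining small subunit genes whose groups did not overlap downwards were Rps15 and Rps16, both encoding core proteins of that subunit. Rps16 read 25217, 22876 and 22329 in the controls and 19853, 21993 and 19185 with PTX. The change was small against the spread, at -0.21 ± 0.11 (adjusted p = 0.450), or -0.15 without control replicate 1. Rps15 read 29339, 20767 and 21095 in the controls and 19326, 20702 and 17940 with PTX on its coding sequence probe set. Here control replicate 1 alone was far above, and the log2 change of -0.28 ± 0.15 (adjusted p = 0.457) became -0.12 without it.

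Rps6, the substrate of the S6 kinases, did not separate the groups on either probe set. The brighter one read 9520, 12178 and 12799 in the controls and 11427, 9135 and 11889 with PTX. Its log2 change was -0.09 ± 0.16 (95% interval -0.45 to 0.28; limma adjusted p = 0.813), and the other probe set had -0.05. On both, control replicate 1 lay below the other controls, and without it the changes were -0.22 and -0.15 (adjusted p = 0.450 and 0.559), with all PTX arrays below both remaining controls on the brighter one. The small subunit probe sets nearest to 0 were those of Rps27l (-0.0013), an Rps27-like gene, of Rps3a (-0.02) and of Rps9 (-0.02). Rps3a, for example, read 24025, 22135 and 22954 in the controls and 24608, 23129 and 20730 with PTX.

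Rps4x-ps9 was the member with the largest change. Its symbol is that of a processed copy of Rps4x, a small subunit gene, and its probe set belongs to those named rc_AA799 or rc_AA800. It had 2628, 7737 and 7359 in the controls and 12700, 11179 and 10466 with PTX, so all PTX arrays were above all controls. The change was 2.15-fold, a log2 change of 1.10 ± 0.38 that did not pass with 6 arrays (limma adjusted p = 0.336). Without control replicate 1 it was 0.60 (adjusted p = 0.0220). The 375 tested probe sets of that naming class had a median of 0.56 with 6 arrays, 333 of them above 0, and the class had 0.27 without that array. In the fit without that array 49 of the 377 tested probe sets of the class passed as higher and 0 as lower. Over all 5244 tested probe sets these counts were 97 and 18. The part of the class in the value of Rps4x-ps9 was not tested. A pair of other probe sets, annotated with this pseudogene and Rps4x together, had -0.20 and -0.16, so which transcript Rps4x-ps9 stands for is uncertain.

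In the large subunit, the largest downward differences with groups apart were those of Rpl6 and Rpl7a. Rpl6 encodes a protein of the large subunit and was read by 2 probe sets. The first had 23937, 15869 and 15810 in the controls and 14358, 14584 and 14030 with PTX, where control replicate 1 stood far above 5 closely spaced arrays. Its log2 change was -0.34 ± 0.17 (adjusted p = 0.439), and -0.15 without that array. The second probe set had -0.18, and 0.03 without that array. Rpl7a read 33179, 23576 and 22704 in the controls and 20493, 22368 and 19930 with PTX. Again the first control was high, with -0.32 ± 0.16 (adjusted p = 0.439), or -0.15 without it.

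Rpl3, Rpl21 and Rpl23, encoding proteins of the large subunit, also had a probe set with all PTX arrays below all controls. On that probe set Rpl3 read 17407, 15536 and 14808 in the controls and 14350, 14774 and 13813 with PTX (log2 change -0.15, adjusted p = 0.546). Its other, brighter probe set had -0.30 with overlapping groups, and -0.03 without control replicate 1. Rpl23 read 26814, 25959 and 25353 in the controls and 24898, 24405 and 21908 with PTX (log2 change -0.14, adjusted p = 0.560). These gaps between groups were narrow. Without control replicate 1 the change hardly differed for Rpl23 (-0.11), whereas that of the Rpl3 probe set with groups apart went to -0.08. The Rpl21 probe set among them was dim, at 124 ± 4.39 and 97.9 ± 7.03 (SD, n = 3 each), and had -0.30 (adjusted p = 0.450).

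Rplp0 encodes the acidic stalk protein P0 of the large subunit and is often used as a reference gene. It read 45871, 30212 and 28241 in the controls and 27074, 29178 and 24815 with PTX. The groups overlapped, since PTX replicate 2 exceeded control replicate 3, and control replicate 1 was 1.5 times or more above every other array, as for 3 of the 60 members. The log2 change was -0.33 ± 0.19 (95% interval -0.76 to 0.10; adjusted p = 0.462). Without that array it was -0.12, with a 95% interval of -0.34 to 0.11 (adjusted p = 0.638). No single-gene probe set was annotated to Rplp1 or Rplp2 themselves, the other stalk proteins.

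Rpl13a, another common reference gene, had changes of both signs on its 2 probe sets. The brighter one read 11769, 14521 and 13389 in the controls and 14167, 12327 and 11501 with PTX, and the other 5182, 6327 and 6890 and 6974, 6930 and 6257. Their log2 changes were -0.06 and 0.14, with overlapping groups and limma adjusted p of 0.836 and 0.650. The intervals of -0.36 to 0.24 and -0.18 to 0.46 bound what these arrays can say of it. Rpl41, which encodes the shortest ribosomal protein, had 3270 ± 154 in the controls and 3250 ± 127 with PTX (SD, n = 3 each). Its change of -0.01 (95% interval -0.27 to 0.25) was the smallest in size of the large subunit, followed by a probe set of Rpl21 (-0.04) and of Rpl23 (-0.05).

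Rpl39 and Rpl27 were the large subunit genes with an unadjusted p under 0.05 in the upward direction. Rpl39 encodes a very short protein that lines the exit tunnel of the ribosome. It read 5024, 4571 and 9324 in the controls and 8370, 9267 and 9384 with PTX, so control replicates 1 and 2 were low and control replicate 3 lay among the PTX arrays. The log2 change was 0.59 ± 0.25 (limma adjusted p = 0.397), or 0.46 with control replicate 1 left out (adjusted p = 0.382). Without control replicate 3 it was 0.91 and passed (adjusted p = 0.0431), which no other member did in that setting. The background of such calls in that setting was 0.572% higher and 0% lower. With that array left out 14 members had an unadjusted p under 0.05, 7 in each direction, instead of 4. Over all tested probe sets such counts rose as well, to 11.2% higher and 7.34% lower.

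The probe sets of Rpl4 and Rpl36al1 had a similar order of arrays. Rpl4, whose protein reaches into the exit tunnel, read 3463, 6454 and 9337 in the controls and 8583, 8907 and 8680 with PTX. Rpl36al1, an Rpl36a-like gene, read 2505, 4056 and 5946 in the controls and 5246, 5611 and 5887 with PTX. In both, control replicate 1 was lowest, control replicate 2 next and control replicate 3 the highest of all 6 arrays. Their log2 changes were 0.55 ± 0.31 and 0.50 ± 0.28 (adjusted p = 0.465 and 0.457), or 0.17 and 0.18 without control replicate 1.

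Different probe sets of the same gene did not always tell the same story. Of 17 genes with more than 1 probe set, 9 had changes of 1 sign and 8 had both signs. Of these 8, Rps2-ps1 and Rpl3l owe their sign to probe sets too dim for the filter. Among the 15 genes with at least 2 tested probe sets, 6 had both signs with 6 arrays and 5 without control replicate 1. The widest gap was that of Rpl26. Its coding sequence probe set read 22950, 20534 and 20012 in the controls and 19758, 19783 and 18340 with PTX (log2 change -0.13), with all PTX arrays lower. Its other probe set read 4232, 11751 and 14052 in the controls and 16172, 14804 and 13118 with PTX (log2 change 0.72 ± 0.40, adjusted p = 0.459). Control replicate 1 was the highest array on the first probe set and the lowest on the second. Without it the changes were -0.07 and 0.19, closer together and still of opposite sign.

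Rps29 was the clearest case in the small subunit. Its protein is a small zinc-binding one of that subunit. The coding sequence probe set read 36365, 35061 and 30646 in the controls and 30773, 30315 and 26406 with PTX. The other probe set read 6386, 31794 and 30840 in the controls and 28939, 29089 and 27330 with PTX. The second probe set was thus far lower on control replicate 1 than on its other 5 arrays, where it stayed between 27330 and 31794, and the first was highest on that array. The log2 changes were -0.22 ± 0.12 and 0.62 ± 0.55 with 6 arrays (adjusted p = 0.450 and 0.616), and -0.17 and -0.14 without that array (adjusted p = 0.499 and 0.517).

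Rps15 and Rpl27 also had probe sets of both signs with 6 arrays. The 3 probe sets of Rps15 had log2 changes of -0.28, -0.21 and 0.26 with 6 arrays, and all were negative (-0.27 to -0.06) without control replicate 1. The dimmer probe set of Rpl27 read 2270, 3001 and 3915 in the controls and 4261, 4009 and 4074 with PTX, with all PTX arrays higher (0.46 ± 0.19, adjusted p = 0.391). The brighter one read 13665, 13563 and 13207 in the controls and 13157, 12889 and 11945 with PTX, with all PTX arrays lower (-0.09, adjusted p = 0.686). This gap remained without control replicate 1, at 0.26 and -0.08, so here the probe sets of a single gene separated the groups in opposite directions. The 4 probe sets of Rpl21 ran from -0.30 to 0.29 with 6 arrays, and from -0.29 to 0.03 without control replicate 1. Of Rpl3l, the tested probe set had -0.36 (adjusted p = 0.567) and the one too dim for the filter 0.28. Rpl31, with 1 probe set, read 5610, 20370 and 20554 in the controls and 19522, 21387 and 19144 with PTX, and its log2 change of 0.59 became -0.03 without control replicate 1.

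**Figure D4:**
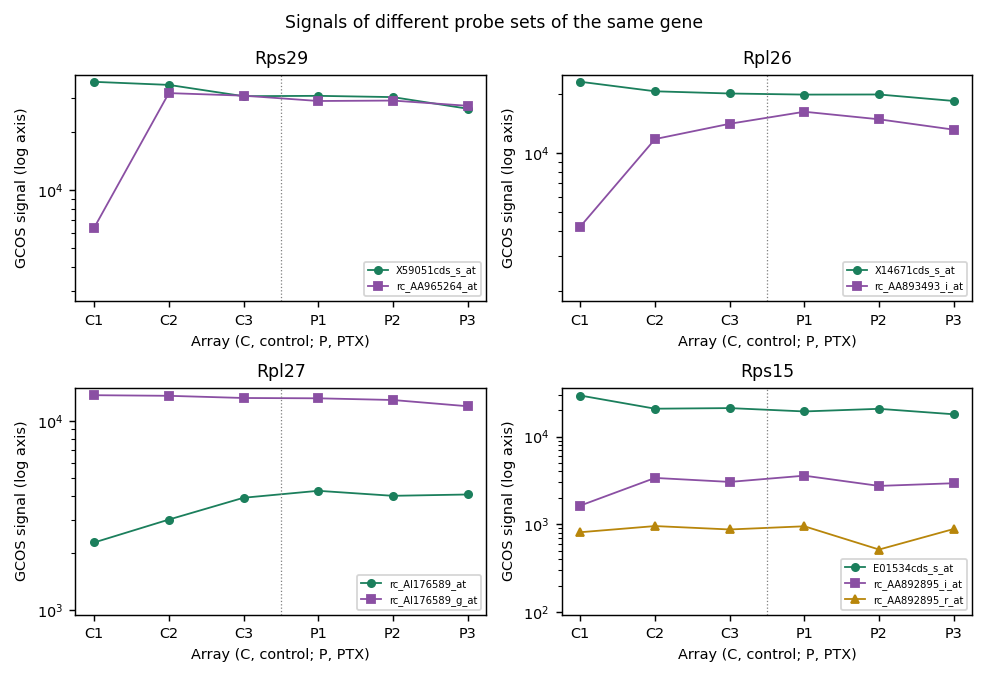
GCOS signals (log axis) of each probe set of Rps29, Rpl26, Rpl27 and Rps15 on the 3 control (C) and 3 PTX (P) arrays; each line is 1 probe set. One probe set of Rps29 drops to 6386 on C1 and stays between 27330 and 31794 on the other 5 arrays, while the other has its highest value, 36365, on C1.

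On control replicate 1, 8 of the 60 members (13.3%) read at least 1.5 times below every other array and 3 (5%) at least 1.5 times above. These shares were near those of all tested probe sets, 13.4% and 3.47%. The 26 tested members named rc_ had a median deviation of -0.12 on that array, and the 34 others one of 0.20. With PTX the 34 had a median log2 change of -0.16, with 31 below 0, and the 26 had -0.06, with 14 below 0. Over all tested probe sets the medians were -0.10 for those not named rc_ and 0.13 for those named rc_. Without control replicate 1 the members had -0.11 and -0.04. Without that array the median coefficient of variation of the members was 4.98% in the other controls and 7.2% with PTX, against 10.6% and 11.0% over all tested probe sets. For the other bright probe sets these were 6.87% and 6.37%, so the members varied less than those in the controls and more with PTX. The control values rest on fewer arrays than the PTX values, so the groups cannot be compared by them.

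A further 40 probe sets were annotated with several genes, at least 1 of them a ribosomal protein gene, and lie outside the rule. Of these 39 passed the filter, 31 of them below 0 (background 52.9%) and with a median of -0.12 (-0.09 when control replicate 1 was left out). With limma 0 passed (smallest adjusted p = 0.261). At an unadjusted p under 0.05 there were 2 lower and 0 higher, where the background is 4.61% lower and 7.97% higher. All PTX arrays lay below all controls for 10 (25.6%, background 10.6%) and above for 0 (background 12%). Among the 475 bright probe sets outside the rule, which hold bright ones of these, the share below was 24.4% and the median -0.14. The several-gene probe sets were not used to choose the members, and they read the same arrays.

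The rest of the translation machinery was measured by smaller lists, with 0 calls by limma on 6 arrays in each. Their counts at an unadjusted p under 0.05 stand against 7.97% higher and 4.61% lower over all tested probe sets, or 9.63% and 5.78% without control replicate 1. Of 10 probe sets of elongation factors, 8 were below 0, with a median of -0.10, and 0 had an unadjusted p under 0.05 in either direction. The negative median was gone without control replicate 1 (-0.0012, 5 of 10 below 0). The smallest p was that of Eef1a1, the factor that brings transfer RNA to the ribosome, which read 3442, 8583 and 8751 in the controls and 8912, 8540 and 8977 with PTX. Its log2 change was 0.47 (adjusted p = 0.541), and 0.02 without control replicate 1, the only low array. Of 25 probe sets of initiation factors and their binding proteins, 18 were below 0, with a median of -0.15 and 2 in each direction at an unadjusted p under 0.05. When control replicate 1 was left out, the median was -0.14, with 17 below 0, 1 higher and 2 lower. Eif4ebp1, which encodes the inhibitor of the cap-binding protein that mTOR phosphorylates, read on its first probe set 4733, 4371 and 3633 in the controls and 2966, 3035 and 2883 with PTX. Its groups did not overlap (log2 change -0.51 ± 0.13, adjusted p = 0.248), and it had -0.43 without control replicate 1 (adjusted p = 0.0802). The second probe set had -0.53 (adjusted p = 0.274), and the third -0.13 with overlapping groups (adjusted p = 0.744).

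Of 9 tested probe sets of further tract-bearing or ribosome-associated genes, 2 were higher and 0 lower at an unadjusted p below 0.05, with a median of 0.02. The median turned to -0.06 without control replicate 1, over 10 tested probe sets, with 6 below 0, 2 higher and 1 lower. Naca, a subunit of the complex that meets the new chain at the ribosome, read 2330, 3342 and 5627 in the controls and 6447, 6575 and 6393 with PTX (log2 change 0.87, adjusted p = 0.307). It had 0.58 without control replicate 1 (adjusted p = 0.144) and passed without control replicate 3 (1.21, adjusted p = 0.0487). The other higher probe set with 6 arrays was one of Hnrnpa1 named rc_AA799 (0.98, limma adjusted p = 0.366). Further probe sets of Hnrnpa1 tested with 6 arrays had 0.12 and 0.04. Of 16 tested probe sets of ribosome biogenesis genes, 2 were higher and 0 lower at that level, with a median of -0.02. It was -0.03 with control replicate 1 left out, with 2 higher and 1 lower. The 2 that were higher with 6 arrays are both of Polr1d, a subunit of RNA polymerases I and III, on probe sets named rc_AA799. The first read 258, 1095 and 874 in the controls and 1700, 1635 and 1571 with PTX (1.35, adjusted p = 0.336), and passed without control replicate 1 (0.73, adjusted p = 0.0140).

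Mitochondrial ribosomal proteins, which build the separate ribosome of mitochondria, had a positive median with 6 arrays. Of their 17 probe sets 12 were positive, with a median of 0.33, and 4 were higher and 0 lower at an unadjusted p below 0.05. With control replicate 1 left out their median was 0.04, with 10 positive, 5 higher and 0 lower. Of the 17, 7 were named rc_AA799 or rc_AA800, all positive and with a median of 0.66, and the other 10 had a median of 0.01, with 5 positive. The part of this naming class in the list's median, and the difference from the cytosolic family, were not tested. Mrpl3 read 450, 1089 and 1317 in the controls and 1936, 1776 and 1682 with PTX (1.04, adjusted p = 0.335), on a probe set named rc_AA800, and passed without control replicate 1 (0.58, adjusted p = 0.0342). Mrps14, on a probe set of another name, read 433, 376 and 353 in the controls and 502, 503 and 493 with PTX (0.36, adjusted p = 0.366; 0.44 without control replicate 1).

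At the same level, of 14 tested probe sets of S6 kinases and other regulators of translation, 2 were higher and 0 lower, with a median of -0.07. It was -0.08 without control replicate 1, again with 2 higher and 0 lower. The smallest p was that of Eif2ak2, a kinase that halts initiation on sensing double-stranded RNA, with 140, 159 and 216 in the controls and 272, 261 and 289 with PTX (0.65, adjusted p = 0.274). The other higher probe set with 6 arrays was one of Akt1 named rc_AA799 (0.40, limma adjusted p = 0.2755), while the second Akt1 probe set had -0.13. Rps6kb1, the kinase of Rps6, had -0.31 on the probe set whose groups were apart (adjusted p = 0.450) and 0.06 on the other. Of 4 tested probe sets of aminoacyl-tRNA synthetases 1 was higher and 1 lower at that level, with a median of -0.02, and without control replicate 1 again 1 each, with 0.01. Vars1, which attaches valine to its transfer RNA, had the smallest p, with 336, 285 and 274 in the controls and 193, 235 and 199 with PTX (-0.48, adjusted p = 0.307).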

How the data were processed

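The sample titles gave the groups and replicate numbers of the 6 arrays. As the labels' protocols state, biotinylated cRNA was made for Affymetrix arrays, read in 1 colour. The submitters' processing notes name GCOS and no version or scaling. Deposited were linear intensities of 8740 probe sets, with 2% trimmed means of 493 to 495, which were not rescaled. The number of arrays limits the precision. Gene names were taken from the platform annotation (7006 with 1 symbol, 308 with several, 1426 with none); list genes used symbols updated through RefSeq (6985 matched). The test was limma 3.58.1 in R 4.3.3 (lmFit, eBayes with an intensity trend, two-sided), on log2(signal + 16) with the filter and threshold given above, checked on simulated data. Each ± beside a log2 change is the moderated SE. Named are members that passed in either fit, the 5 smallest p per subunit and direction with groups apart, the 3 changes nearest 0 per subunit, a few reference and stalk genes, the 5 genes whose probe sets differ most in sign, and the smallest p of each list; Rpl4, Rpl31, Rpl36al1 and Rpl39 were chosen after their values were seen, as were other list members named beside the first. Members and lists were chosen with earlier results of these data known. Alternatives were 3 scalings, pseudocounts, filters, variance models, array weights, a replicate block, probe set classes left out and each array left out.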

Additional observations from a re-analysis of the deposited data

How the results depend on the processing

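With limma, 0 ribosomal protein probe sets passed under every setting that kept all arrays, and also without control replicate 1 and the 5 prefixes together; leaving out single arrays gave 0 to 1, the 1 being Rps4x-ps9 without control replicate 1 and Rpl39 without control replicate 3. Calls in the related lists ranged from 0 to 2. At an unadjusted p under 0.05 the 4 members became 2 with no filter, 1 with common median scaling, 1 with eBayes without a trend and 0 without control replicate 1 and the 5 prefixes, and 0 to 14 with an array left out. The large subunit's median log2 change moved to -0.0096 under quantile normalization and to 0.023 under cyclic loess, and was -0.15 to -0.081 with an array left out. That of the small subunit was -0.019 and -0.013 with these normalizations, -0.026 with 1 mean per gene, and -0.13 to -0.028 with an array left out.

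Over all probe sets the 4 calls became 2 with a pseudocount of 1 and 7 with 64, 2 with quantile normalization, 9 with robust variances, 81 with array quality weights, 8 without the rc_AA799 and rc_AA800 probe sets, 11 without those of 5 prefixes (these and rc_AA892 to rc_AA894), and 32 without these and control replicate 1. They were 0 to 115 with an array left out. They were 0 with eBayes without a trend (615 at an unadjusted p under 0.05) and 0 with the replicate number as a block (552 at that level). No sign of pairing by number was seen: deviations of same-numbered samples from their group means correlated at -0.09, -0.11 and -0.01. With 3 samples per group this cannot exclude pairing. The block changed no call of a ribosomal protein probe set, with 0 passing and 3 at an unadjusted p under 0.05. Of 593 values under alternatives of single member probe sets named by rule, 1 newly passed and 46 changed sign without passing in either fit. Members chosen after their values were seen, Rpl39 among them, are not in this count.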

Other observations

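The largest downward value of all 5244 tested probe sets belonged to a probe set annotated with 6 genes, Rn18s, Rn45s, Rpl4, B2m, Hbb-bs and Pfdn1. It read 9199, 9873 and 7445 in the controls and 2853, 3140 and 453 with PTX, so the groups were far apart and PTX replicate 3 lay well below the other PTX arrays. Its log2 change was -2.44 ± 0.65 (SE; limma adjusted p = 0.261). With control replicate 1 left out it was -2.41 (limma adjusted p = 0.0929). Since it names several genes, none of them can be taken as its source. It was chosen after its value was seen.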
